A study of Mus musculus with 4 samples.

Results

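Cathepsins are the proteases that digest protein in lysosomes, and cystatins are the small proteins that bind and inhibit the cysteine-type cathepsins. Most cathepsins are made as inactive proenzymes, tagged with mannose 6-phosphate in the Golgi, delivered to acidic vesicles and activated there by cleavage. In macrophages they degrade engulfed material, prepare antigen for MHC class II molecules and, when secreted, cut matrix proteins, and in many tumors TAMs are a main source of them. RNA sequencing of TAMs was used here to describe 8 cathepsins (Ctsa, Ctsb, Ctsc, Ctsd, Ctsh, Ctsl, Ctss and Ctsz) and 2 cystatins (Cst3 and Cstb), 10 genes of the 54146 listed. They were taken by symbol through their Ensembl identifiers. All 10 passed the filter on low counts that left 14688 genes for the test.

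The TAMs were live CD11b+ F4/80+ cells, sorted by FACS from the CD45+ fraction of MCA205 tumors, a transplanted mouse fibrosarcoma grown under the skin of female mice aged 8 to 16 weeks. The control group, labelled vehicle, and the propranolol group had 2 libraries each, and propranolol, a nonselective blocker of beta-adrenergic receptors, was given at 0.5 g/L in the drinking water from the day the tumor cells were injected. All mice thus carried the same tumor line, and no group without a tumor was sequenced. The study calls the 2 libraries of a group biological replicates, but the labels do not say how many mice gave 1 library, so the tests measure only the spread between these libraries. Total counts were 13798249 and 23018142 in control replicates 1 and 2, and 39818103 and 16424081 in propranolol replicates 1 and 2. Macrophage transcripts were abundant, with Adgre1, which encodes F4/80, at 975 and 1008 CPM in control TAMs and 1151 and 1100 in propranolol TAMs, and Lyz2 between 5226 and 7569 in the 4 libraries. CPM relates the counts of a gene to the size of its library, scaled with TMM factors.

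On GRCm38, Ctsa occupies chr2:164832873-164841032, Ctsz chr2:174427493-174439039 and Cst3 chr2:148871722-148875692. Chromosome 7 holds Ctsc at chr7:88278085-88310888 and Ctsd at chr7:142375911-142388038. The others are Ctsb at chr14:63122462-63145923, Ctsh at chr9:90054152-90076089, Ctsl at chr13:64359337-64370890, Ctss at chr3:95526786-95556403 and Cstb at chr10:78425669-78427622. Counts are of exons.

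Lysosomal genes are classically driven by TFEB and TFE3, which bind the letters CACGTG within a longer palindrome, and myeloid genes by PU.1, which binds GAGGAAGT and its variants. RefSeq promoter windows on GRCm38.p6, from 250 bases before to 50 after a transcript start, were found for 7 of the 10 genes (8 windows, 2 of them for Ctsa), and Ctsb, Ctsh and Cstb were not matched. Shown are the windows with a match, CACGTG in Ctsa, Ctsd and Ctsl, which rose, and GAGGAAGT in Ctsc and Ctss, which did not. The windows of Ctsz and Cst3, which rose as well, held none of the motifs searched. These directions are from the comparison below. With the GC trend described further on removed, Ctsc stood at log2 0.42 and Ctss at 0.13. Ctsa (0.32), Ctsd (0.47) and Cst3 (0.26) were then short of 1.5-fold. On both strands, CACGTG was present in 7.15% of the 32851 windows of all genes and in 3 of the 8 windows here, and GAGGAAGT in 3.2% of all windows and in 2 of the 8. CACGTG with GT before it and AC after it, the full palindrome, was in 0.326% of all windows, and the AP-1 letters TGACTCA were in 5.2%, and neither was in any of the 8. A match is a description of the letters only, and binding was not measured. Each stretch below is written 5′ to 3′ on the strand of the gene, with the motif in capitals (in Ctsc and Ctss it reads as the reverse complement of GAGGAAGT). The stretches are chr2:164833721-164833772 (plus strand) for Ctsa, chr7:142387880-142387965 (minus) for Ctsd, chr13:64370711-64370770 (minus) for Ctsl, chr7:88277894-88277981 (plus) for Ctsc and chr3:95526744-95526791 (plus) for Ctss.
Ctsa: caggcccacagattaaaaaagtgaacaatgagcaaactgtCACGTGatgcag
Ctsd: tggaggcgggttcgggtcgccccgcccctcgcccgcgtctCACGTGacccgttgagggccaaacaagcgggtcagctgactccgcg
Ctsl: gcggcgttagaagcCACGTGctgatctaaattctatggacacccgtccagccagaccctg
Ctsc: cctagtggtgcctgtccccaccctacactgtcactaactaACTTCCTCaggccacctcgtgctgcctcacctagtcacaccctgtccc
Ctss: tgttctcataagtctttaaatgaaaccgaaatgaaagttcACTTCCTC
In Ctsa the first base of the motif lay 12 bases before the second RefSeq start. Another CACGTG began at the 6th base counted from that start onward, the start base included. In Ctsd it lay 98 bases before the start, with another copy at 245 bases, and in Ctsl at 236 bases. The motif of Ctsc lay 151 bases before the start, and that of Ctss spanned the start.

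Together the genes took 1.75% and 1.64% of all counts in control TAMs and 1.88% and 1.78% in propranolol TAMs. Levels were compared between genes per length, as TPM, in which counts are divided by length and brought to a fixed total, over the merged exons of each gene. In control TAMs, Ctss, the protease that removes the last pieces of the invariant chain from MHC class II, was highest at 7813 and 7292 TPM, rank 13 among all genes. Ctsz (2940 and 3060 TPM), Cst3 (2856 and 2747) and Ctsb (2656 and 2508) followed close together, with no overlap between neighbours. Ctsc (1591 and 1439 TPM) and Ctsd (1270 and 1236) came next. Cstb (704 and 622 TPM) and Ctsa (625 and 630) overlapped, so their order was not resolved. Ctsh (461 and 477 TPM) and Ctsl (161 and 145) were the lowest, Ctsl at rank 943.

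In propranolol TAMs, Ctss stayed highest at 5931 and 5420 TPM, and Ctsz stood directly below it at 4813 and 4919. Cst3 (3721 and 3446 TPM) and Ctsb (3197 and 3214) kept their places. Ctsd, at 1798 and 1861 TPM, now stood above Ctsc, at 1092 and 970, and Ctsa, at 787 and 822, above Cstb, at 694 and 517. Ctsh (339 and 307 TPM) and Ctsl (223 and 180) were again the lowest. The order depended on the length used. With the principal transcript of each gene, mean levels in control TAMs ran from Ctss (5281 TPM) through Cst3 (2877), Ctsc (2463), Ctsb (2298) and Ctsz (2093) to Ctsl (170), and Ctsc (1655) stayed above Ctsd (1394) in propranolol TAMs. There Cst3 stood above Ctsz with the principal transcript (3636 against 3355 TPM) and with the longest transcript (4064 against 3749). TPM adds up to the same total in every library, whereas TMM scaling does not assume that, so the ratio of 2 TPM values is smaller than the fold changes given below.

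**Figure D1:**
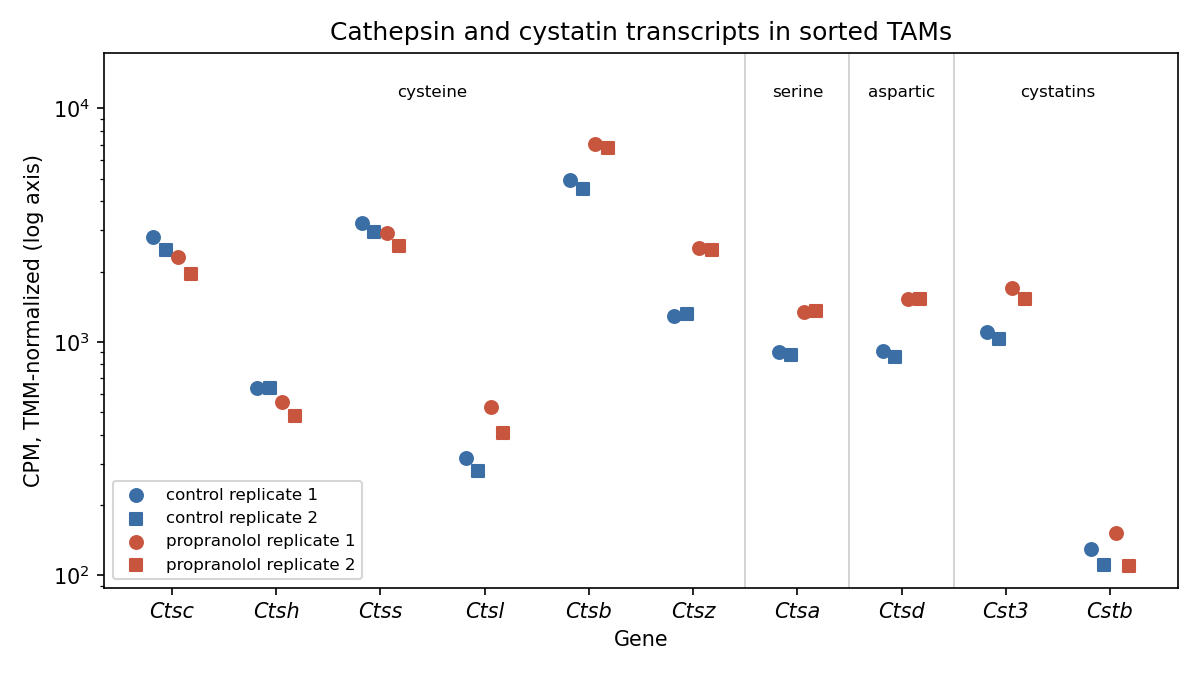
CPM of each gene (log axis) in the 4 libraries, with circles for replicate 1 and squares for replicate 2, blue for control and red for propranolol, grouped by catalytic type. Ctsz, Ctsb, Ctsa, Ctsd, Cst3 and Ctsl had both propranolol libraries above both control libraries, Ctsc, Ctsh and Ctss had both below, and the groups of Cstb overlapped.

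The question of the comparison was how propranolol treatment of the mice went with the expression of these genes in TAMs. Ctsz, Ctsd, Ctsl, Ctsa and Cst3 rose in TAMs from propranolol treated mice, by 1.51-fold to 1.91-fold, and 0 of the 10 genes fell. A gene was counted as changed at an adjusted p under 0.05 in the edgeR quasi-likelihood test with Benjamini-Hochberg adjustment over all tested genes and a change of more than 1.5-fold. By that rule 27.8% of all tested genes changed, 12.2% up and 15.6% down (1798 and 2286 genes), against 5 up and 0 down of these 10. Without the fold criterion, 6 of the 10 were higher and 2 lower, against 21.8% and 20.4% of all tested genes (42.2% together). At the 1.5-fold criterion DESeq2 and limma-voom also called 0 of the 10 lower, and at an unadjusted p under 0.05 in edgeR 2 were lower, against 25% of all tested genes. The median log2 fold change of the 10 was 0.57 and that of all tested genes -0.02. The groups did not overlap for 9 of the 10, 6 higher and 3 lower with propranolol, and neither did they for 72.6% of all tested genes (35.8% higher and 36.9% lower). Without control replicate 2, or without propranolol replicate 1, Ctsl (log2 0.56 and 0.45) and Cst3 (0.56 and 0.51) fell under the fold criterion. In bulk RNA of sorted cells, a lower or higher share of one kind of cell and less or more RNA per cell cannot be told apart.

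Of the cysteine cathepsins, Ctsz showed the largest fold change, although once the trend with GC content described further on was removed Ctsl (log2 1.07) stood above it and Ctsb (0.61) level with it (0.60). Cathepsin Z, also called cathepsin X, trims single residues from the C-terminus of proteins. Its CPM was 1294 and 1309 in control TAMs and 2513 and 2469 in propranolol TAMs. Replicates lay close together and the groups far apart. The log2 fold change was 0.94 (SE 0.08, adjusted p = 0.000103 in edgeR), a 1.91-fold rise from 1302 ± 10.4 to 2491 ± 31.2 CPM (SD, n = 2). It was the one gene of the 10 that was called under every alternative at the 1.5-fold criterion.

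Ctsl encodes cathepsin L, an endopeptidase of broad specificity that also acts on matrix proteins outside the cell. Its CPM was 319 and 279 in control TAMs and 524 and 407 in propranolol TAMs. Both propranolol libraries were above both controls, but replicate 1 of the propranolol group stood well above replicate 2. The log2 fold change was 0.64 (SE 0.13, adjusted p = 0.00318 in edgeR), with a 95% confidence interval of 0.35 to 0.93. It was 0.45 without propranolol replicate 1 and 0.56 without control replicate 2, both short of 1.5-fold, as it was with upper-quartile factors (0.58) and with libraries scaled to their totals (0.41).

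Ctsb encodes cathepsin B, an endopeptidase that also removes dipeptides from the C-terminus and the one with the most counts of the 10. Its CPM was 4911 and 4505 in control TAMs and 7010 and 6773 in propranolol TAMs. The groups were well separated, and the 1.46-fold difference (log2 0.55, SE 0.08, adjusted p = 0.000704 in edgeR) was short of the 1.5-fold criterion. Leaving out control replicate 1 or propranolol replicate 2 gave 0.67 and 0.61 on the log2 scale, past it.

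Ctsc and Ctsh encode the aminopeptidases of the group. Cathepsin C removes dipeptides from the N-terminus and so activates granzymes and other serine proteases of granules, and cathepsin H removes single residues. The CPM of Ctsc was 2824 and 2482 in control TAMs and 2298 and 1961 in propranolol TAMs. For Ctsh it was 634 and 637 against 553 and 481. Each had both propranolol libraries below both controls by a small margin. The log2 fold change was -0.32 (SE 0.10) for Ctsc and -0.30 (SE 0.10) for Ctsh, with edgeR adjusted p = 0.0329 and 0.0341, and both lay inside the 1.5-fold limits. Neither adjusted p stayed under 0.05 without control replicate 1 (log2 -0.17 with adjusted p = 0.34 in edgeR for Ctsc, -0.24 with 0.198 for Ctsh) or without propranolol replicate 2 (-0.18 with 0.248, and -0.17 with 0.275), nor did that of Ctsh without control replicate 2 (-0.28 with 0.113). Without the GC trend the value of Ctsc was 0.42.

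For Ctss, the most abundant of the 10 per length, CPM was 3242 and 2940 in control TAMs and 2919 and 2563 in propranolol TAMs. The upper propranolol library and the lower control library nearly met. The log2 fold change of -0.17 (SE 0.10) did not pass the test (adjusted p = 0.172 in edgeR), with a 95% confidence interval from -0.39 to 0.04. Within a library, the ratio of Ctsz to Ctss in TPM was 0.376 and 0.42 in control TAMs and 0.811 and 0.908 in propranolol TAMs, a ratio chosen after the values were seen. That of Ctsb to Ctss was 0.34 and 0.344 against 0.539 and 0.593. Both ratios were higher in each propranolol library than in each control library. Such ratios do not depend on how libraries are scaled to each other, but they do on GC content. From the fitted fold changes Ctsz to Ctss differed 2.16-fold between the groups and Ctsb to Ctss 1.65-fold, and with the GC trend removed 1.38-fold and 1.39-fold.

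Ctsa encodes cathepsin A, a serine carboxypeptidase that also holds the sialidase Neu1 and beta-galactosidase Glb1 in a protective complex. Its CPM was 901 and 882 in control TAMs and 1344 and 1349 in propranolol TAMs. Replicates differed by far less than the groups, and the log2 fold change was 0.60 (SE 0.09, adjusted p = 0.000558 in edgeR), 1.51-fold and so just past the criterion. It was short of it with upper-quartile factors (0.54), a stricter filter on low counts (0.57), the GC trend removed (0.32) and libraries scaled to their totals (0.36). The exons of Ctsa overlap those of Pltp on the other strand, which had 3805, 6344, 14291 and 6412 counts in control replicates 1 and 2 and propranolol replicates 1 and 2, against 13359, 22133, 48866 and 20606 for Ctsa. The counting parameters that the study lists include no strand option, so reads of the overlap cannot be assigned with certainty. Ctsb and Fdft1, and Ctsz and Nelfcd, overlap in the same way, but there the partner had 430 to 1435 and 539 to 2173 counts a library, a small number beside those of Ctsb and Ctsz.

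Ctsd encodes cathepsin D, the main aspartic protease of lysosomes. Its CPM was 913 and 862 in control TAMs and 1532 and 1524 in propranolol TAMs. The propranolol libraries lay almost on each other and well above the controls. Ctsd rose 1.72-fold, with a log2 fold change of 0.78 (SE 0.09, adjusted p = 0.000182 in edgeR). It was short of 1.5-fold with the GC trend removed (0.47) and with libraries scaled to their totals (0.55).

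Of the inhibitors, Cst3 encodes cystatin C, which is secreted and inhibits cysteine cathepsins outside the cell and in the endocytic pathway. Its CPM was 1105 and 1032 in control TAMs and 1707 and 1519 in propranolol TAMs. The groups were clear of each other, and the rise was 1.51-fold (log2 0.59, SE 0.09, adjusted p = 0.000941 in edgeR), which fell short of the criterion at 0.51 without propranolol replicate 1 and at 0.56 without control replicate 2. The same settings that ended the call of Ctsa ended that of Cst3, with 0.54, 0.57, 0.26 and 0.36. Cstb encodes cystatin B, the inhibitor kept in the cytosol. Its CPM was 130 and 111 in control TAMs and 152 and 109 in propranolol TAMs. The groups overlapped, with propranolol replicate 1 the highest and propranolol replicate 2 the lowest of the 4, and the log2 fold change was 0.12 (SE 0.15, adjusted p = 0.569 in edgeR, 95% confidence interval -0.22 to 0.45). Leaving out propranolol replicate 1 gave -0.15, and leaving out replicate 2 gave 0.36.

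Summed over the 6 cysteine cathepsins, TPM was 15622 and 14921 in control TAMs and 15595 and 15010 in propranolol TAMs, so on the TPM scale the sums overlapped. The carboxypeptidases Ctsa, Ctsb and Ctsz together had 6221 and 6198 TPM in control TAMs and 8796 and 8955 in propranolol TAMs. The aminopeptidases Ctsc and Ctsh together had 2052 and 1916 against 1431 and 1276. Neither of these sums was planned. Each joins genes that moved the same way in the uncorrected fit, so its direction follows from them and adds nothing to it. For the 2 cystatins the sum was 3560 and 3369 TPM against 4415 and 3963. The ratio of cysteine cathepsins to cystatins was 4.39 and 4.43 in control TAMs and 3.53 and 3.79 in propranolol TAMs, lower in each propranolol library. Removal of the GC trend turned this direction, since the mean control levels (ratio 4.41) carried forward by the corrected fold changes gave 4.76. In the same way the fitted sum of Ctsc and Ctsh turned from 0.805 to 1.22 times the control level with the GC trend removed, the 6 cysteine cathepsins went from 1.18 to 1.28 times, the carboxypeptidases from 1.69 to 1.49 times and the cystatins from 1.43 to 1.18 times. Within 1 library these sums compare transcripts, not protein or activity. Ratios and sums within a library were not tested.

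**Figure D2:**
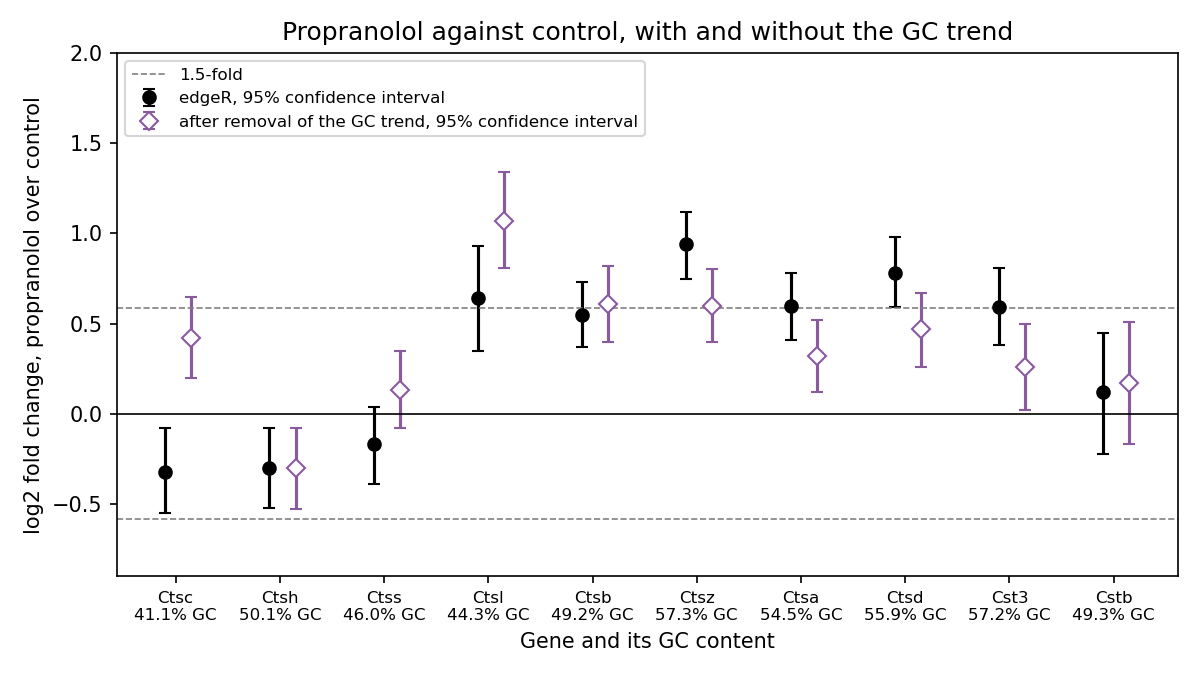
Log2 fold change of each gene, propranolol over control, from edgeR (filled circles) and after removal of the trend with GC content (open diamonds), with 95% confidence intervals and dashed lines at 1.5-fold. The values of Ctsz, Ctsa, Ctsd and Cst3 dropped with the removal, those of Ctsl and Ctsc went up, and that of Ctsc changed sign from -0.32 to 0.42.

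The fold changes followed the GC content of the transcripts. Across the 14681 tested genes with a GC content, Spearman's rho between GC content and log2 fold change was 0.577, and across the 10 genes it was 0.612 (genes share the libraries and are not independent replicates). Cst3 (57.2% GC), Ctsz (57.3%), Ctsd (55.9%) and Ctsa (54.5%) were rich in GC, and genes within 1 point of each had median log2 fold changes of 0.48, 0.47, 0.44 and 0.38. Ctsc (41.1%) was poorest in GC, and its neighbours in GC content had a median of -0.71. Ctsl, at 44.3% GC, stood 1.03 above its neighbours' median of -0.39. Ctsb stood 0.52, Ctsz 0.47, Ctsc 0.39 and Ctsd 0.34 above theirs, Ctsa 0.22 and Cst3 0.12 above, and Ctsh 0.39 below. Ctss and Cstb were within 0.1 of theirs. With the GC trend removed from each library, 3 of the 10 were called higher and 0 lower, against 7.64% and 4.97% of 14681 genes (12.6% together), and the median was 0.37 against 0.09 for all genes.

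Those 3 genes were Ctsl at a log2 fold change of 1.07 (SE 0.12), Ctsb at 0.61 (SE 0.09) and Ctsz at 0.60 (SE 0.09), with edgeR adjusted p = 0.00056, 0.0023 and 0.0022. For Ctsd the value was 0.47 (adjusted p = 0.00729 in edgeR), for Ctsa 0.32 (adjusted p = 0.0288) and for Cst3 0.26 (adjusted p = 0.111). For Ctsc it was 0.42 (adjusted p = 0.0141 in edgeR), opposite in sign to the uncorrected value. Ctsh, at 50.1% GC, stayed at -0.30 (adjusted p = 0.0522 in edgeR), and Ctss went from -0.17 to 0.13 (adjusted p = 0.35). How much of the trend came from RNA quality, library preparation or the cells was not tested.

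**Figure D3:**
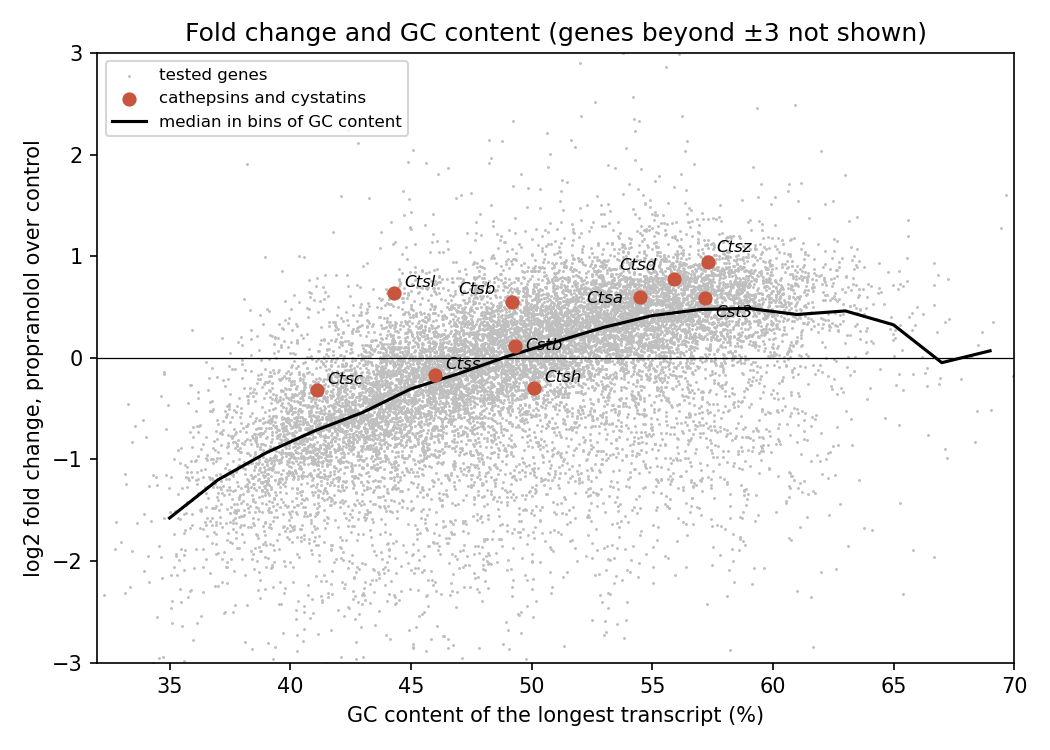
Log2 fold change, propranolol over control, against the GC content of the longest transcript for all tested genes within ±3 (gray) and the 10 genes (red), with the median in bins of GC content as a line. Ctsl, Ctsb, Ctsz, Ctsd and Ctsc lie farthest above the line, and Ctsh lies below it.

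Scaling mattered as well. The control libraries had TMM factors of 1.08 and 1.09, those of propranolol treated mice 0.914 and 0.931. Scaled to total counts alone, the median of all tested genes moved to -0.25, with 609 genes higher and 3497 lower, and Ctsz (log2 0.70) was the one gene of the 10 still called. Ctsd was then at 0.55, Ctsl at 0.41, Ctsa and Cst3 at 0.36, Ctsb at 0.32 and Cstb at -0.12, and Ctss at -0.41 (adjusted p = 0.00553 in edgeR), Ctsh at -0.53 and Ctsc at -0.55. Relative to that median, Ctsz was at 0.96, Ctsd at 0.80, Ctsl at 0.66, Ctsa at 0.62, Cst3 at 0.61, Ctsb at 0.57 and Cstb at 0.13. Ctss, Ctsh and Ctsc stood at -0.15, -0.28 and -0.30 on that relative scale. Scaling shifts all genes by about the same amount, so it bears on direction and calls and not on the order of the genes.

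Markers of other cells moved along with treatment in the sorted population, against 12.2% of all tested genes that rose and 15.6% that fell. For T and NK cells, 9 of 10 tested markers fell, with summed CPM of 264 and 301 in control TAMs and 132 and 72.2 in propranolol TAMs, led in CPM by Cd8a. For fibroblast or tumor cells, 6 of 8 fell, with sums of 3064 and 1156 against 694 and 755. Col3a1 led them in control TAMs, at 1294 CPM in replicate 1 and 423 in replicate 2. Of 8 dendritic cell markers 4 fell (sums of 83.5 and 66.2 against 47.4 and 44.8, led by Fscn1). The 1 mast cell marker tested, Kit, fell, with Mcpt8, Ms4a2 and Fcer1a at 0. Of 8 monocyte markers 4 rose (sums of 3246 and 2929 against 5376 and 4662, led by Fn1), as did 5 of 8 tested neutrophil markers (sums of 182 and 199 against 357 and 383, led by Csf3r). Of the 12 macrophage markers 2 rose and 0 fell (sums of 23383 and 22389 against 29398 and 26653, led by Lyz2). B cell markers, led by Ighm, summed to 159 and 184 against 185 and 198, and endothelial markers, led by Pecam1, to 44.6 and 41.9 against 57 and 50.7, with 1 riser in each list and 1 B cell marker that fell. With the GC trend removed, 8 of 10 T and NK cell markers, 6 of 8 fibroblast or tumor cell markers, 2 of 8 dendritic cell markers and Kit were called lower, and 5 monocyte and 6 neutrophil markers higher, against 4.97% of all genes lower and 7.64% higher in that fit. In that fit 1 of the 12 macrophage markers was called higher, Mrc1 (log2 0.85), in place of Csf1r (0.32) and Cd14 (0.50), and 0 B cell or endothelial markers were called. The part of these cells in the values of Ctsz, Ctsd, Ctsl, Ctsa and Cst3 was not tested.

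Of 15 other cathepsins, 5 passed the filter and 9 had 0 counts in all libraries, among them the placental cathepsins Ctsj, Ctsm, Ctsq and Ctsr. Ctsw, the cathepsin of NK cells and cytotoxic T cells, was the one changed gene of the 5, where 15.6% of all tested genes fell. Without control replicate 2 the count of those that fell was 2. Its CPM was 32.5 and 45.3 in control TAMs and 26.8 and 10.9 in propranolol TAMs. It fell by 1.01 on the log2 scale (SE 0.32, adjusted p = 0.0272 in edgeR), alongside the T and NK markers above. Ctsk, the collagen-degrading cathepsin of osteoclasts, had 17.5 and 7.85 CPM against 5.94 and 7.53, with control replicate 1 apart from the other libraries (log2 -0.90, SE 0.34, adjusted p = 0.0525 in edgeR). Ctsf was at 23.9 and 24.6 CPM against 33.9 and 31 (log2 0.42, adjusted p = 0.0235 in edgeR, under 1.5-fold). Without the GC trend Ctsf stood at 0.10 (adjusted p = 0.616 in edgeR). Ctso was at 44.5 and 45.4 against 37.4 and 37.1 (log2 -0.27, adjusted p = 0.0797 in edgeR, and 0.40 without the GC trend). The aspartic protease Ctse was at 8.36 and 6.62 against 6.05 and 7.07 (log2 -0.19, adjusted p = 0.557 in edgeR).

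Of 26 other cystatin symbols, 24 were listed and 3 passed the filter. Cst7 encodes cystatin F, an inhibitor of cathepsin C known from NK cells, cytotoxic T cells and other leukocytes. Its CPM was 12.9 and 15.7 in control TAMs and 8.94 and 4.72 in propranolol TAMs, and it fell by 1.03 on the log2 scale (SE 0.28, adjusted p = 0.0131 in edgeR). Cst6 (log2 -0.73, adjusted p = 0.412 in edgeR) and Stfa2l1 (0.60, adjusted p = 0.471) were near the limit of detection. Stefin A genes are near-identical copies, so reads may not be assignable to a single copy. Cst3 was by far the main cystatin transcript, with Cst3 to Cstb ratios in TPM of 4.06 and 4.42 in control TAMs and 5.36 and 6.66 in propranolol TAMs. This difference depended on GC content. The log2 fold changes of Cst3 and Cstb were 0.59 and 0.12, but 0.26 and 0.17 with the GC trend removed.

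**Figure D4:**
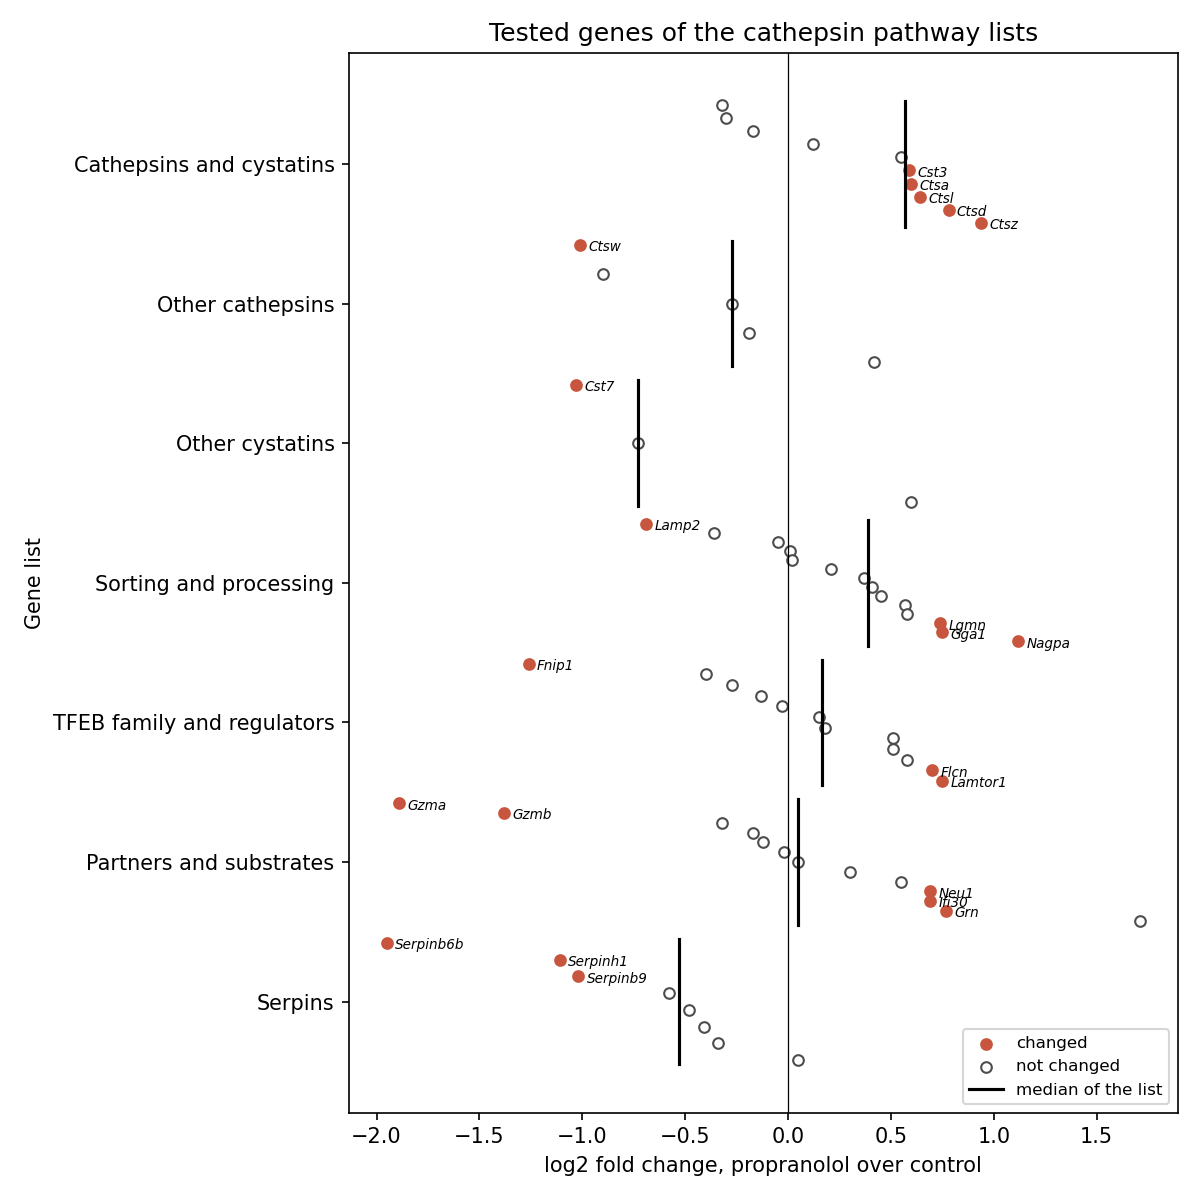
Log2 fold change, propranolol over control, of every tested gene in the 10 genes and in 6 lists of related genes, with changed genes filled and named and a vertical bar at the median of each list. The medians run from -0.73 for other cystatins to 0.57 for the 10 genes. The former rests on 3 tested genes and is the value of Cst6, near the limit of detection (SE 0.67). With the GC trend removed these medians were -0.86 and 0.37.

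The listed genes that tag, carry and activate cathepsins were all detected. Their list also holds the lysosomal membrane proteins Lamp1, Lamp2 and Scarb2 and the substrate Psap. Of the 14 genes in this list, 3 rose and 1 fell, beside 12.2% and 15.6% of all tested genes, with a median log2 fold change of 0.39. Without the GC trend 2 were called higher and 0 lower, beside 7.64% and 4.97% of all genes. Without control replicate 2, 5 were higher, and without control replicate 1 or propranolol replicate 2, 0 were lower. Lgmn, the asparaginyl endopeptidase that cleaves cathepsins to their mature chains and is itself inhibited by cystatin C, had 2773 and 2557 CPM in control TAMs and 4321 and 4556 in propranolol TAMs. It rose by 0.74 on the log2 scale (SE 0.09, adjusted p = 0.000214 in edgeR). Nagpa, which uncovers the mannose 6-phosphate tag, rose by 1.12 (adjusted p = 0.000103 in edgeR), and Gga1, an adaptor of mannose 6-phosphate receptors, by 0.75 (adjusted p = 0.000451), which became 0.48 and was no longer called without the GC trend. Lamp2, a lysosomal membrane protein, fell by 0.69 (adjusted p = 0.00174 in edgeR), but stood at 0.34 once the GC trend was removed. Psap, the most abundant of the 14 and a substrate of cathepsin D, was at 7809 and 7634 CPM against 10697 and 10450. Its log2 fold change was 0.45 (adjusted p = 0.00115 in edgeR, under 1.5-fold), and 0.17 without the GC trend (adjusted p = 0.197 in edgeR).

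Of 12 genes of the TFEB family and its regulators, 2 rose and 1 fell, with a median of 0.17, beside 12.2% and 15.6% of all tested genes. The count of genes that rose was 5 without propranolol replicate 1 and 4 without control replicate 2. Lamtor1, the anchor of the Ragulator complex on lysosomes, rose by 0.75 on the log2 scale (adjusted p = 0.000334 in edgeR). Flcn, a regulator of Rag GTPases, rose by 0.70 (adjusted p = 0.00181 in edgeR). Lamtor1 was the most abundant of the 12 in propranolol TAMs, but not in control TAMs. Without the GC trend Lamtor1 stood at 0.83, still called, and Flcn at 0.41, while Tfec was called higher (0.98, from 0.15). Fnip1, a partner of Flcn, fell by 1.26 (adjusted p = 0.000103 in edgeR) and stood at -0.26 without the GC trend. Tfeb (0.51, adjusted p = 0.00782 in edgeR) and Tfe3 (0.58, adjusted p = 0.0014) were short of 1.5-fold. With the GC trend removed they stood at 0.28 (adjusted p = 0.0837 in edgeR) and 0.43 (adjusted p = 0.0101).

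Of 13 tested genes in the list of partners and substrates of cathepsins, 3 rose and 2 fell, with a median of 0.05, where 12.2% of all tested genes rose and 15.6% fell. This list also holds MHC class II genes and Ifi30. Gzma and Gzmb, granzymes that cathepsin C activates, fell by 1.89 and 1.38 on the log2 scale (adjusted p = 0.00137 and 0.00143 in edgeR). Both are products of cytotoxic lymphocytes, whose markers fell as well. Neu1, which needs cathepsin A, rose by 0.69 (adjusted p = 0.000657 in edgeR), and the ratio of Ctsa to Neu1 in TPM was 7.07 and 6.3 in control TAMs and 6.43 and 6.07 in propranolol TAMs. Grn, the precursor of granulins and cut by cathepsin L among others, rose by 0.77 (adjusted p = 0.000148 in edgeR), and Ifi30, a lysosomal thiol reductase of antigen processing, by 0.69 (adjusted p = 0.000322). None of these 3 was called once the GC trend was removed. Cd74, the invariant chain that Ctss degrades, was the most abundant of the list at 8998 and 9568 CPM against 9407 and 8910 (log2 -0.02, adjusted p = 0.866 in edgeR). Without the GC trend Cd74 stood at -0.35 (adjusted p = 0.0268 in edgeR), inside the 1.5-fold limits.

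Of 8 tested serpins, 0 rose and 3 fell, set against 12.2% and 15.6% of all tested genes, with a median of -0.53. DESeq2 and limma-voom also called 0 of them higher, and at an unadjusted p under 0.05 in edgeR 0 were higher and 5 lower (25% of all tested genes were lower at that threshold). Without propranolol replicate 1, 5 fell. Serpinb6b fell by 1.95 on the log2 scale (adjusted p = 0.00205 in edgeR). Serpinb9, an inhibitor of granzyme B, fell by 1.02 (adjusted p = 0.00168 in edgeR), a call that was lost without the GC trend (-0.39). Serpinh1, a collagen chaperone that inhibits no protease, fell by 1.11 (adjusted p = 0.0145 in edgeR), from 117 and 49.3 CPM to 36.7 and 39.9, and its high library, control replicate 1, was the one with the most Col3a1. Without the GC trend Serpinb6a was called higher (0.92, adjusted p = 0.00165 in edgeR, from 0.05). Serpina3g, the most abundant of the list, was at -0.34 (adjusted p = 0.126 in edgeR).

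Among all tested genes outside the 10, the course of their mean across the 4 libraries (log2 CPM, centred on the mean of each gene) was most like that of Cks1b, with a root mean square difference of 0.00232, followed by Sdf4 (0.00731), Rpl27a (0.00785), Tmed3 (0.00866) and Ube2g2 (0.01). The profile of Ctss was most like that of Svip (0.01), Rcbtb2 (0.011), Calm2 (0.0145), Rpl4 (0.0151) and Thap1 (0.0154). With 4 libraries, many genes come close to any profile.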

How the data were processed

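RNA from sorted TAMs (RIN above 7.5) was sequenced after poly-A selection in 4 libraries. According to the methods and the submitters' processing notes, the authors aligned reads to mm10 with STAR 2.7.1a, kept alignments with a MAPQ above 30 with SAMtools 1.9 and counted exons of GENCODE genes with featureCounts 1.6.4. The deposited values are these counts, without normalization, and neither the annotation release nor a strand option is stated. All 4 value columns were matched to libraries by the labels, and 0 columns and 0 rows without a gene name were left out. Identifiers were matched to GENCODE M21 on GRCm38, which gave symbols for 54079 of 54146 genes and all 10 versioned identifiers of the genes described.

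The comparison of groups used the quasi-likelihood test of edgeR (version 4.0.16 in R 4.3.3, TMM factors, filterByExpr with a minimum count of 10, no covariates, common dispersion 0.0172), where the study used DESeq2. Replicates differed by more than sampling noise (chi-square per degree of freedom 11.8 for control and 15.1 for propranolol). Alternatives were DESeq2 1.42.0, other scaling factors, filters and thresholds, limma-voom 3.58.1, each library left out, a replicate block, and removal of a spline of GC content (5 degrees of freedom) from each library. Scaling to library totals, the principal transcript length and GC-corrected ratios (mean control TPM times the corrected fold changes) were added after the data were seen. The sums of carboxypeptidases and of aminopeptidases and the TPM ratios between pairs of genes were not planned either. Steps were tested on simulated data. Total counts of 13798249 to 39818103 limit the precision of low genes such as Cst6. Sequences are RefSeq windows.

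The 10 genes, the gene lists and the alternatives were chosen with earlier results of these data known. Named genes were the 10, every tested gene of the other cathepsins and cystatins, the changed genes (at most 4) and the most abundant gene of each other list, the leading gene of each marker list and markers at 0, and the 5 genes nearest in profile. Adgre1, Tfeb, Tfe3, Tfec, Serpinb6a, Mrc1, Csf1r, Cd14 and the overlapping genes were named beyond that rule, after their values were seen. The study's other experiments were not analysed here.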

Additional observations from a re-analysis of the deposited data

How the results depend on the processing

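Ctsz kept its direction and its call in all settings at the 1.5-fold criterion (log2 fold change 0.60 to 1.01). Removal of the GC trend gave 1121 genes higher and 730 lower, 3 of the 10 higher, and log2 values of 0.32 for Ctsa, 0.47 for Ctsd, 0.26 for Cst3, 0.61 for Ctsb, 0.42 for Ctsc and 0.13 for Ctss, the last 2 reversed in sign, and turned the ratio of cysteine cathepsins to cystatins with propranolol from 3.66 to 4.76, above control. With the replicate block added to it the counts were 1180, 940 and 3, and the values were the same but for Ctsc (0.43). Library totals without TMM factors gave 609 higher and 3497 lower, 1 of the 10 higher, and 0.36 for Ctsa and Cst3, 0.55 for Ctsd, 0.41 for Ctsl and -0.12 for Cstb. On that scale the sorting list had 1 gene higher and 2 lower, the TFEB list 0 and 2, partners 0 higher, serpins 5 lower and other cathepsins 2 lower. Upper-quartile factors gave 1417 genes higher and 2533 lower. They left 2 of the 10 higher, with Ctsa and Cst3 at 0.54 and Ctsl at 0.58. A stricter filter, CPM 1 or more in both libraries of a group, gave 1670 genes higher and 2331 lower. It left 3 of the 10 higher, with Ctsa and Cst3 at 0.57. Omitting the filter on low counts brought Ctsb to 0.62. Without the fold criterion 3205 genes were higher and 2999 lower, with 6 of the 10 higher and 2 lower. Above a log2 fold change of 1.5, 61 genes were higher, 667 lower and 0 of the 10.

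Leaving out 1 library gave 3 (without control replicate 2 or propranolol replicate 1) to 6 of the 10 higher, 0.51 to 0.71 for Cst3, 0.45 to 0.84 for Ctsl, 0.50 to 0.67 for Ctsb, -0.43 to -0.17 for Ctsc, -0.40 to -0.17 for Ctsh and -0.15 to 0.36 for Cstb. The lone library of a group was then assumed to vary like the other group. With lengths of the longest transcript, summed TPM was 19044 in control and 20173 in propranolol and the ratio of cysteine cathepsins to cystatins 3.66 and 2.94, and with the principal transcript 17714, 18500, 3.85 and 3.05, against 20617, 22125, 4.41 and 3.66 with all exons. The replicate numbers are shared only as names (correlation of deviations 0.169, 2 pairs), and the replicate block gave 1867 genes higher and 2495 lower and 5 of the 10 higher, with 2 other cathepsins lower in place of 1. With 2 libraries a group, GC content and scaling limit what a fold change near 1.5 can show. The cause of these shifts was not tested.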
